A study of Homo sapiens with 9 samples.

Results

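VEGFA, the gene of vascular endothelial growth factor A, was described here through the HIF-1α binding calls in the 600 kb around it, chromosome 6 from 43600000 to 44200000 on hg19. The window was set by position, and a call belonged to it when its summit, the base with the strongest signal, fell inside. Overlapping calls of the 6 libraries, by 1 bp or more, were merged into regions, and 26 of the 9420 regions of the series lay in the window. VEGFA itself was taken to run from 43738000 to 43754000, rounded positions, so distances to the gene are good to about 1 kb. By its strongest summit, 1 region was assigned to the promoter (within 5 kb of the gene start), 5 lay upstream, 20 lay downstream of the gene, and 0 lay in the rest of the gene body. The gene table used here, on another genome build and so for names only, puts MRPS18A before VEGFA and MRPL14 after it among protein-coding genes. Between VEGFA and MRPL14 it lists 8 long noncoding RNA genes, among them LINC02537, LINC01512, SCIRT and LINC03040, and no region could be placed against them.

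The cells were SK-N-BE(2), an established human neuroblastoma line known for amplified MYCN. HIF-1α was immunoprecipitated from fixed, sheared chromatin in 3 libraries of cells held at 21% oxygen (normoxia) and 3 of cells held at 1% oxygen (hypoxia), each for 48 hours. The 3 input libraries were all from 21% oxygen. No genetic change or drug separates the groups, and the labels do not say whether the libraries are from different cultures. The p-values thus speak for the spread among these libraries, possibly a technical one. Depth, taken as the genome-wide background, lay between 5.31 and 6.69 reads per kb in the 6 libraries. The lists held 1408, 5833 and 7619 intervals in hypoxia 1, 2 and 3. Those of normoxia 1, 2 and 3 held 75, 32 and 109. Hypoxia 1 stood apart from the other hypoxia libraries: its fragment extension was 48 bp, close to the 46 to 47 bp of normoxia, while those of hypoxia 2 and 3 were 155 and 167 bp. Folds of these lists are therefore not on 1 scale and are compared here within a list. The authors' fold was taken as summit reads plus 1 over local background plus 1, which compresses it where the background is near or below 1 read.

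VEGF-A is a secreted protein that acts on receptors of endothelial cells and drives the growth of new blood vessels. Its gene is a textbook target of HIF-1, the pair of the oxygen-regulated HIF-1α and its partner ARNT. In oxygenated cells HIF-1α is hydroxylated, bound by VHL and degraded. In low oxygen it persists and binds hypoxia response elements, of which the best known at VEGFA lies upstream of the gene start.

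The VEGFA window held many HIF-1α calls in hypoxic cells and almost none in normoxic cells. Hypoxia 1, 2 and 3 had 10, 22 and 22 intervals there, and normoxia 1, 2 and 3 had 0, 0 and 1. All hypoxia counts lay above all normoxia counts. The hypoxia lists were also far longer as a whole, with 1408, 5833 and 7619 intervals against 75, 32 and 109 in normoxia. The window was moreover chosen with its strongest hypoxia region known, so the count difference and its p are a description. Hypoxia libraries averaged 18 ± 6.93 intervals and normoxia libraries 0.333 ± 0.577 (SD, n = 3 each), a difference of 17.7 intervals (two-sided exact permutation p = 0.1, the smallest that 3 against 3 libraries allow). In hypoxia 1, 2 and 3 they covered 2434, 9044 and 11713 bp of the window, and in normoxia 1, 2 and 3 they covered 0, 0 and 99 bp. The covered length averaged 7730 ± 4777 bp over hypoxia libraries and 33 ± 57.2 bp over normoxia libraries (SD, n = 3 each, two-sided exact permutation p = 0.1, the smallest possible). Covered length also depends on fragment extension, 155 and 167 bp in hypoxia 2 and 3 against 46 to 48 bp in the other libraries. Its share in the difference was not tested. With the best 32 intervals of each list by p, the hypoxia lists put a mean of 1.33 and the normoxia lists 0.333 in the window. The strongest region was known when the window was set, so these means are a description.

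**Figure D1:**
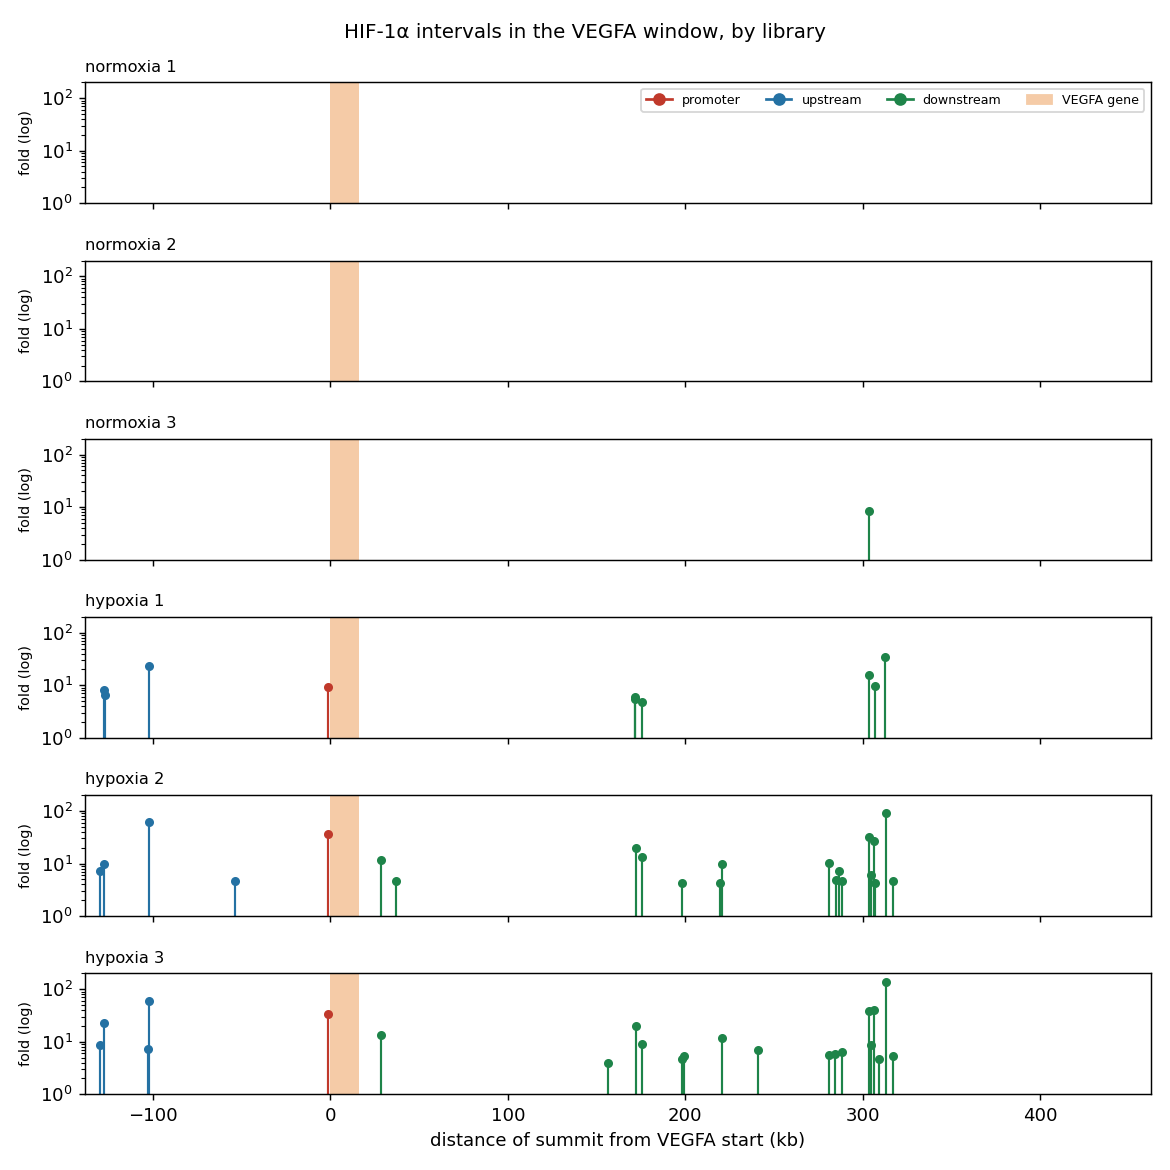
Each panel is 1 library, each point 1 interval, placed by the distance of its strongest summit from the VEGFA start (kb) and by the authors' fold over local background (log scale), with the gene shaded. The hypoxia panels hold 10, 22 and 22 intervals, with 1 promoter call each and a crowded stretch 300 kb and more downstream, and the normoxia panels hold 0, 0 and 1.

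Set against the length of its own list, the window took 0.71% of the intervals in hypoxia 1 (exact 95% binomial interval 0.341% to 1.3%), 0.377% in hypoxia 2 (0.237% to 0.57%) and 0.289% in hypoxia 3 (0.181% to 0.437%). The window is 0.0194% of the summed chromosome lengths, each taken as the end of the last call on that chromosome. It was chosen with its strongest region known and its intervals lie in clusters, so this comparison is a description and no test. In normoxia 3 the share was 0.917% (0.0232% to 5.01%), and the 0 intervals of normoxia 1 and 2 allow shares of up to 4.8% and 10.9%. These intervals cover counting error only. Shares averaged 0.459% ± 0.222 over hypoxia and 0.306% ± 0.53 over normoxia libraries (SD, n = 3 each, two-sided exact permutation p = 0.6), so the gap was smaller than the spread. It came to 0.153 percentage points with all libraries, 0.0271 without hypoxia 1, 0.459 without normoxia 3 and -1.1e-06 without normoxia 1 or normoxia 2, and it turned to -0.0421 when only intervals with a −log10 q of at least 5 were counted.

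Few tiles of a fixed grid over the genome were as crowded. When each chromosome was cut into tiles of 600 kb, 0% of the 5163 tiles held 10 or more hypoxia 1 intervals, where the fullest had 8. In hypoxia 2, 2 tiles (0.0387%) held 22 or more, and in hypoxia 3, 6 tiles (0.116%) did. The mean tile held 0.273, 1.13 and 1.48 intervals in hypoxia 1, 2 and 3. The window's edges do not follow the tiles, and a fixed grid can split a cluster that a placed window holds whole. Windows placed around other clusters were not counted, and these shares too are a description.

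Of the 26 regions in the window, 17 were called in at least 2 hypoxia libraries, 65.4%, beside 43.9% of all 9420 regions. All 3 hypoxia libraries called 8 of them, 30.8%, beside 11.5% of all regions. The other 9 of the 17 were called in hypoxia 2 and hypoxia 3, and none of these in hypoxia 1. The count of 17 rested on those libraries, since both remaining hypoxia lists called 8 regions when either hypoxia 2 or hypoxia 3 was left out. Of the 9 regions called once, 4 came from hypoxia 2 and 5 from hypoxia 3. A normoxia call stood at 1 of the 26 regions, beside 1.46% of all regions. That region was also 1 of the 17, beside 2.25% of all regions called in at least 2 hypoxia libraries.

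At the VEGFA promoter, HIF-1α was called in all 3 hypoxia libraries and in 0 of 3 normoxia libraries. The promoter region ran from 43736597 to 43737822 on chromosome 6, 1226 bp that end just before the rounded gene start. The interval was 305 bp long in hypoxia 1, 1172 bp in hypoxia 2 and 1143 bp in hypoxia 3. Its strongest summit fell at 43736942, 43736984 and 43736978 in hypoxia 1, 2 and 3. These positions are 1058, 1016 and 1022 bp before the rounded gene start and within 42 bp of one another.

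The summit of the VEGFA promoter held 16 reads in hypoxia 1, 96 in hypoxia 2 and 83 in hypoxia 3. The authors' fold there, with its pseudocount of 1, was 9.23, 37.2 and 33.6. Within its own list the promoter ranked 270th of 1408, 122nd of 5833 and 165th of 7619 by fold at the summit of smallest p. These ranks lie in the top 19.2%, 2.09% and 2.17%. The promoter thus stood among the stronger calls of hypoxia 2 and 3 and less far up in the list of hypoxia 1. Its summit reads were 50.4, 104 and 93.7 times the genome-wide background in hypoxia 1, 2 and 3. The local background at the summit was 2.65, 1.74 and 1.69 times the genome-wide value, and its part in the ranks was not tested.

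The promoter call held more than 1 summit in each hypoxia library. Hypoxia 2 had a weaker summit at 43737368, 632 bp before the gene start, with a fold of 9.81 and 21 reads. Hypoxia 3 had one at 43737388, 612 bp before it, with a fold of 12 and 23 reads, and another at 43737693, 307 bp before it, with a fold of 7.95 and 14 reads. These weaker summits all lay on the gene side of the main one. Hypoxia 1 had a summit at 43737059, with a fold of 9.69 and 13 reads. That fold was above the 9.23 of the summit given first, which led by −log10 p (16.16 against 16.05). No further call of any library lay within 10 kb of the gene start.

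The strongest HIF-1α region of the window lay 313 kb downstream of the VEGFA start and 297 kb past its end, from 44050244 to 44051251. Its place in the window was known when the window was set, so its height is a description. The summit held 50 reads in hypoxia 1, 255 in hypoxia 2 and 253 in hypoxia 3. By fold it ranked 2nd of 1408 in hypoxia 1, 5th of 5833 in hypoxia 2 and 2nd of 7619 in hypoxia 3. In hypoxia 1 the same interval carried 2 weaker summits, at 44050616 with a fold of 21.6 and at 44050503 with a fold of 4.47, while hypoxia 2 and 3 had 1 summit each. No normoxia library had a call there.

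Within each list this distal region exceeded the promoter. Its fold was 3.83, 2.51 and 4 times that of the promoter in hypoxia 1, 2 and 3, a geometric mean of 3.37 (SD of log2 ratios 0.372, n = 3). In summit reads, which leave local background aside, it was 3.13, 2.66 and 3.05 times the promoter, a geometric mean of 2.94 (SD of log2 ratios 0.126, n = 3). In reads over local background with no pseudocount it was 5.92, 2.45 and 5.15 times the promoter, a geometric mean of 4.21 (SD of log2 ratios 0.685, n = 3). The size of the ratio thus depended on the measure, and it was above 1 in each library by all 3. No test was run on this ratio, because the region was singled out for its rank.

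The second of the strong sites lay 102 kb upstream of VEGFA, from 43635567 to 43636534. Its summit held 30, 122 and 147 reads in hypoxia 1, 2 and 3, with folds of 23.5, 61.7 and 59.3, and no normoxia library called it. By fold it ranked 21st, 39th and 50th in the 3 lists. Its fold was 1.95 times that of the promoter as a geometric mean (SD of log2 ratios 0.337, n = 3), with 2.55, 1.66 and 1.76 in the single libraries. In summit reads the geometric mean was 1.62 (SD of log2 ratios 0.303, n = 3), and in reads over local background with no pseudocount it was 2.62 (SD of log2 ratios 0.806, n = 3), with 4.97 in hypoxia 1. This site was picked as the upstream region of highest fold among those called in all 3 hypoxia libraries. Its ratio to the promoter is therefore a description. The promoter was not the strongest HIF-1α site on either side within this window.

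**Figure D2:**
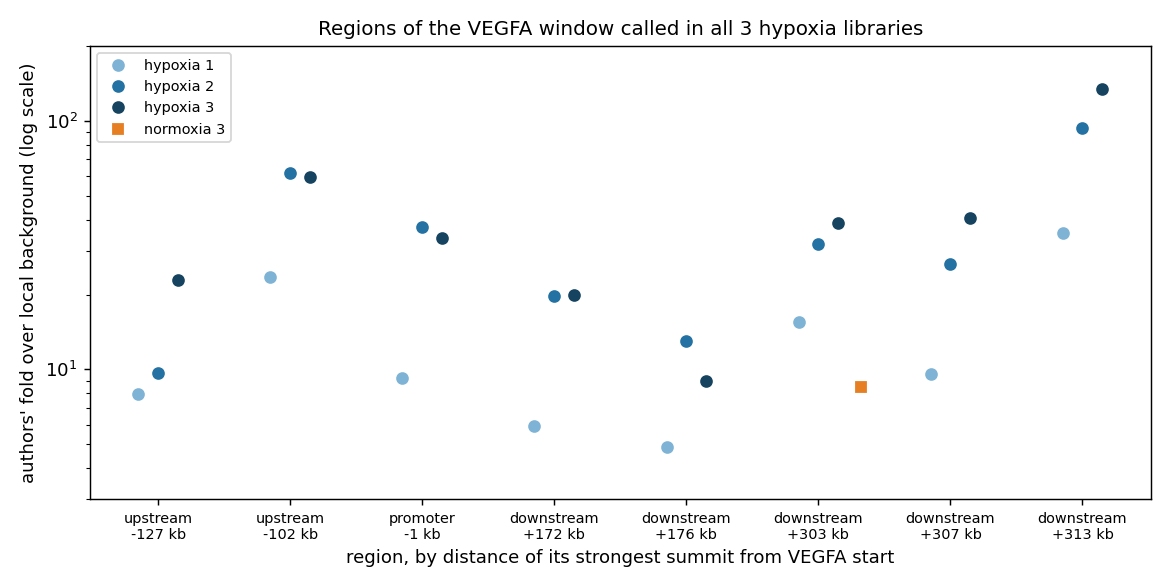
The 8 regions called in all 3 hypoxia libraries, in order of position, with the authors' fold over local background on a log axis, 1 point a library. The region at 313 kb is highest in each hypoxia library (35.3, 93.4 and 135), the one at -102 kb is next (23.5, 61.7 and 59.3), and the single normoxia point, 8.5, stands at the region 303 kb downstream.

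The strongest distal region was not alone. Within 10 kb of its summit there were 6 regions. At least 2 hypoxia libraries called 5 of these, and 3 were found by all 3. These 6 formed a cluster of 14.2 kb. The region from 44041105 to 44041719, 303 kb downstream of the VEGFA start, held 20, 69 and 72 reads at its summit in hypoxia 1, 2 and 3, with folds of 15.4, 31.9 and 38.7. The region from 44043926 to 44045183, 307 kb downstream, held 12, 68 and 76 reads, with folds of 9.56, 26.5 and 40.8. Summits of neighbouring regions in the cluster called in at least 2 libraries were 1.22 to 6.26 kb apart.

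The only normoxia call of the window stood in this cluster. At the region 303 kb downstream, normoxia 3 had 1 interval from 44041153 to 44041251 with a summit at 44041175, 10 reads and a fold of 8.5. That summit lay 11 bp from the hypoxia 1 summit at 44041186. Corrected for depth, hypoxia 1 had 1.89 times the reads of normoxia 3 there, a comparison of 2 single libraries. It rests on 20 against 10 reads, and its counting error was not estimated. Among the 8 regions of all 3 hypoxia libraries, 1 thus had a normoxia call, beside 7.1% of the 1085 such regions of the series.

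The rest of the cluster was weaker. The region from 44042123 to 44042776 had folds of 6.17 and 8.48 in hypoxia 2 and 3, and the region from 44054922 to 44055316, the last of the window, had folds of 4.61 and 5.3. Hypoxia 3 alone called 44046974 to 44047170, with a fold of 4.77 and 8 reads. Before the cluster, 281 to 289 kb downstream of the gene start, a looser group held the regions 44018781 to 44019092, 44022446 to 44022953 and 44026181 to 44026705. In hypoxia 2 their folds were 10.1, 4.9 and 4.7, and in hypoxia 3 they were 5.61, 5.78 and 6.47. None of these regions was called in hypoxia 1.

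Midway between VEGFA and the cluster, a pair of regions was called in all 3 hypoxia libraries. The region from 43909662 to 43910363, 172 kb downstream, held 9, 37 and 42 reads in hypoxia 1, 2 and 3, with folds of 5.93, 19.8 and 19.9. The region from 43913435 to 43913783, 176 kb downstream, held 8, 33 and 35 reads, with folds of 4.88, 13.1 and 9.02. Their summits were 3.67 kb apart. Further on, 43936152 to 43936549 (folds of 4.25 and 4.77) and 43958362 to 43958933 (folds of 9.69 and 11.8) were called in hypoxia 2 and 3.

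Closest to the end of VEGFA, 12.6 kb past it, lay 43766416 to 43766979, called in hypoxia 2 and 3 and in 0 normoxia libraries. It held 21 and 24 summit reads, with folds of 11.5 and 13.3. Both libraries placed 2 summits in it, and the strongest of each were 217 bp apart. Hypoxia 1 had no call between the promoter and the region 172 kb downstream.

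Upstream of the site at -102 kb, a further region of all 3 hypoxia libraries ran from 43610551 to 43610997, 127 kb before the gene start. It held 10, 32 and 42 reads in hypoxia 1, 2 and 3, with folds of 7.97, 9.69 and 22.8. Next to it, 43608264 to 43608563 was called in hypoxia 2 and 3 with folds of 7.13 and 8.66.

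The order of the 8 regions found by all 3 hypoxia libraries was steady at the top and mixed below. By fold at the summit of smallest p, the distal region came first and the site at -102 kb second in each of the 3 lists. The promoter was 5th, 3rd and 5th, the region at 303 kb 3rd, 4th and 4th, and the region at 307 kb 4th, 5th and 3rd in hypoxia 1, 2 and 3. These 3 exchanged places between libraries and could not be ordered. In hypoxia 1 the other summit of the promoter had a fold of 9.69, above the 9.56 of the region at 307 kb. The regions at -127 kb, 172 kb and 176 kb took the last 3 places in each list, again in changing order.

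**Figure D3:**
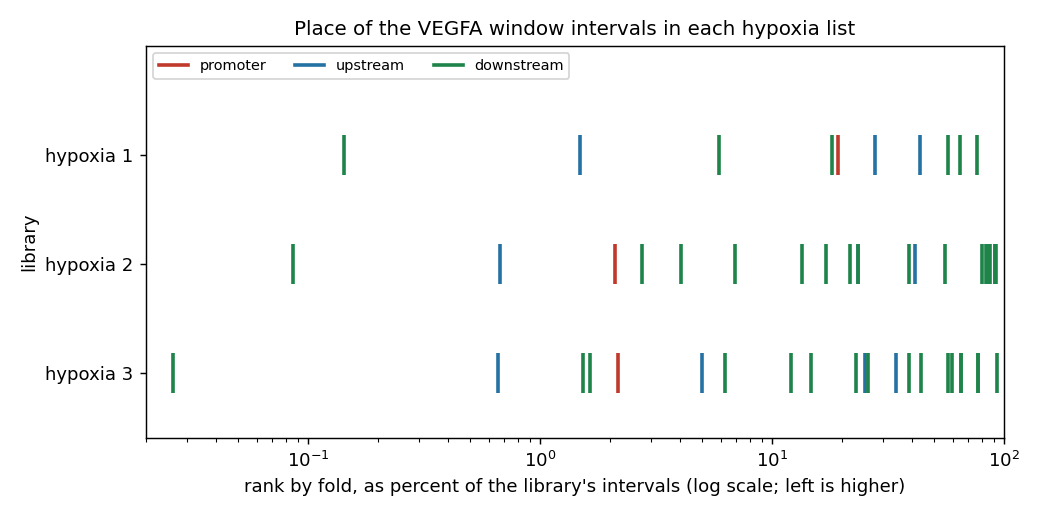
Each tick is 1 interval of the VEGFA window, placed by its rank by fold as a percentage of all intervals in that hypoxia list (log axis, strongest on the left) and coloured by position relative to the gene. The leftmost tick of each row is the distal region (2nd of 1408, 5th of 5833 and 2nd of 7619), and the promoter tick stands at 19.2%, 2.09% and 2.17%.

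Regions called by fewer libraries mostly had lower folds, which is partly built in, since a call depends on strength. The 9 regions of hypoxia 2 and 3 had a median fold of 6.17 (4.25 to 11.5) in hypoxia 2 and of 6.47 (4.77 to 13.3) in hypoxia 3, with 8 to 32 summit reads. The ranges overlapped those of regions found by all 3 libraries, whose lowest folds were 9.69 in hypoxia 2 and 9.02 in hypoxia 3. The 9 regions called once had folds of 4 to 7.42 and 8 to 15 reads. Over all intervals of the window the median fold was 8.6, 8.49 and 8.57 in hypoxia 1, 2 and 3, beside 6.07, 6.53 and 6.12 over each whole list. The median length was 144, 293 and 454.5 bp in the window and 111, 246 and 259 bp in the whole lists. Intervals with more than 1 summit were 3 of 10, 3 of 22 and 4 of 22 in the window, beside 23%, 4.34% and 4.27% of each list. Local background at the strongest summit of each window interval was 1 to 2.65, 1 to 2.62 and 1 to 3.38 times the genome-wide value in hypoxia 1, 2 and 3.

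Summits of different libraries fell close together. Over the 8 regions of all 3 libraries, the summits of hypoxia 2 and 3 were a median of 6 bp apart (4 to 32 bp). The summit of hypoxia 1 was a median of 53 bp (14 to 178 bp) from the nearer of them. At the distal region the hypoxia 2 and 3 summits were 6 bp apart and hypoxia 1 was 60 bp away, and at the promoter these distances were 6 and 36 bp. The farthest hypoxia 1 summit, 178 bp away, belonged to the region 172 kb downstream, where hypoxia 1 had 9 reads. Hypoxia 1 had another interval in that region, also with 9 reads, whose summit at 43909902 lay nearer to the others. The farther summit was used because it led by −log10 p (8.46 against 7.64). Hypoxia 1 differs from the others in extension and in reads at each of these summits, and their part in its offset was not tested.

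**Figure D4:**
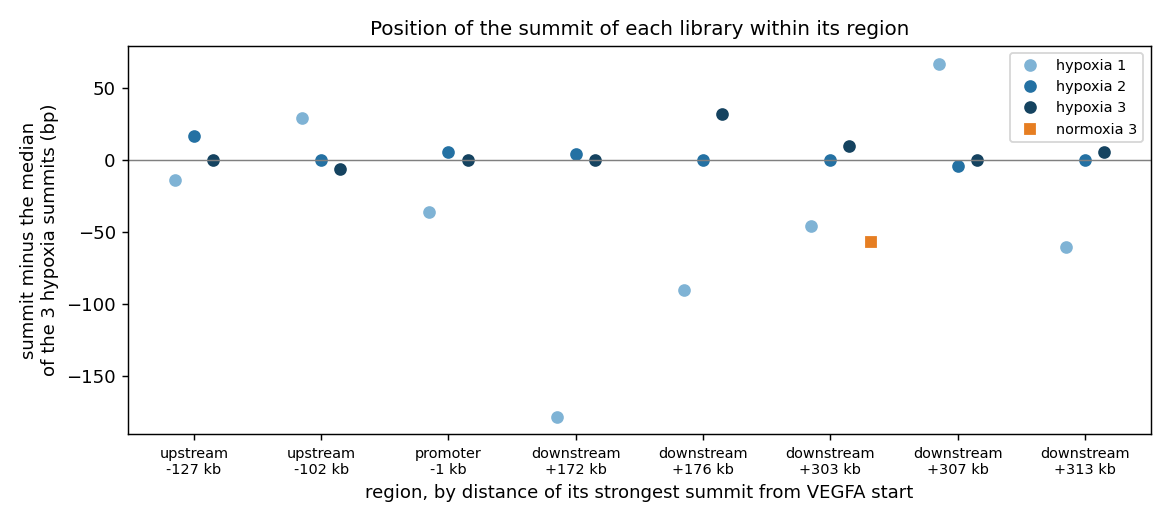
For each of the 8 regions, the summit of each library is plotted as its distance in bp from the median of the 3 hypoxia summits. Hypoxia 2 and hypoxia 3 points lie 4 to 32 bp apart, hypoxia 1 points lie 14 to 178 bp from the nearer of them, and the normoxia 3 point lies 11 bp from hypoxia 1.

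A missing normoxia call sets only an upper limit. Hypoxia 1 has nearly the same extension as the normoxia libraries, so its summit reads were scaled to their depth and set against the reads needed for a call at the largest p of each normoxia list and the local background seen in hypoxia 1. At the distal region 50 reads scaled to 50.5, 45.5 and 47.3 for normoxia 1, 2 and 3, where 6, 7 and 6 reads would have been called. A normoxia signal of 11.9%, 15.4% and 12.7% of that in hypoxia 1 would thus have sufficed, and none was called. At the site 102 kb upstream, 6 reads were needed in each normoxia library, 19.8%, 22% and 21.2% of the scaled hypoxia 1 reads.

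The VEGFA promoter left less room. Its 16 hypoxia 1 reads scaled to 16.2, 14.5 and 15.1, where 8, 9 and 8 were needed in normoxia 1, 2 and 3. A normoxia signal below 49.5%, 61.9% and 52.9% of that in hypoxia 1 would have gone uncalled, and the missing calls say nothing below these levels. All such limits rest on the reads of 1 hypoxia library and carry their counting error. At the region 303 kb downstream, 6 reads were needed, 29.7% and 33% of the scaled hypoxia 1 reads in normoxia 1 and 2, which had no call, and 31.7% in normoxia 3, which had one. At the region 176 kb downstream the scaled reads were 8.08, 7.27 and 7.56 against 8, 9 and 8 needed, so normoxia 2 and 3 would have missed even a signal equal to that of hypoxia 1.

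**Figure D5:**
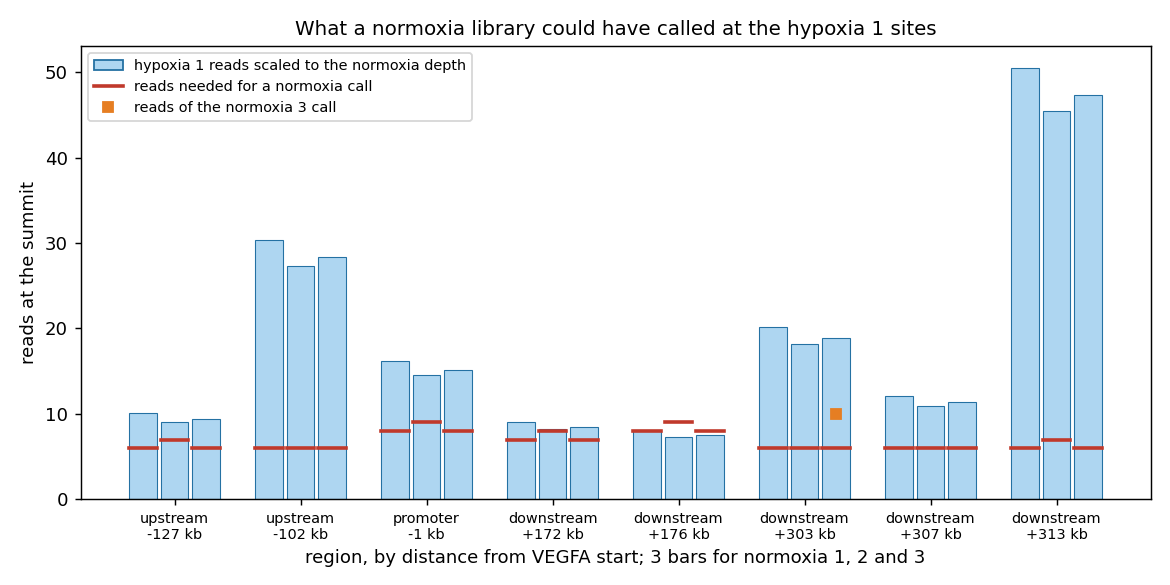
For the 8 regions called in all 3 hypoxia libraries, bars give the hypoxia 1 summit reads scaled to the depth of normoxia 1, 2 and 3, and the red lines the reads each would have needed for a call. Bars at the distal region (50.5, 45.5 and 47.3) stand far above the lines at 6, 7 and 6, those at 176 kb stand at or below them, and the square marks the 10 reads of the normoxia 3 call.

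Other regions of the genome shared the library pattern of VEGFA. Outside the window, 1001 regions were called in the same libraries, all 3 hypoxia and no normoxia. Likeness was measured as the largest absolute difference in log2 fold over the 3 hypoxia libraries. The region most like the distal one lay on chromosome 5 from 148801751 to 148802692 (difference 0.35, folds of 28.8, 84.5 and 105). The next were chromosome 16 from 20013090 to 20014160 (0.40) and chromosome 1 from 201760521 to 201761503 (0.56). The region most like the VEGFA promoter lay on chromosome 2 from 13673107 to 13673839 (difference 0.11, folds of 9.07, 40.3 and 33.8), followed by chromosome 16 from 29142374 to 29143334 (0.14) and chromosome 18 from 13726382 to 13726790 (0.14).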

How the data were processed

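The authors deposited 1 narrowPeak list per HIF-1α library. Per the submitters' processing notes, BWA 0.7.17 and MACS2 were used with hg19, while for MACS2 its version, settings and read filters were not given in the sources used here. Each deposited fold was taken as a ratio of summit reads plus 1 to local background plus 1. This relation was found in 16302 of 16463 lines. The −log10 p and −log10 q values are those of the authors' peak caller, and the deposited score equals 10 times −log10 q without decimals in all 16463 lines.

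Summit lines of 1 interval were counted as 1, using the summit of smallest p, on chromosomes 1 to 22, X and Y. Positions are 1-based. Reads and local background were recovered from fold and p, with the ratio above taken as given. The whole number of reads whose Poisson tail gave p within 0.001 was sought, which succeeded for all 16463 lines (100%). The lowest background of a list was its genome-wide background, the shortest interval its fragment extension, and their ratio its depth. The code was tested on simulated data. Counts were compared over libraries by two-sided exact permutation tests (Python 3.11.15, numpy 2.4.6).

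Named regions were those called in at least 2 hypoxia lists, up to 12 in order of position. There were 17, and the other 5, together with regions called once, were named after their values were seen. The 3 regions most alike in log2 fold to the distal and the promoter region were also named. The window and its lists were chosen with earlier results of these data known. Alternatives covered thresholds, overlap, window edges, promoter distance and left-out libraries. Promoters of other VEGF family genes were not analysed here, since they need an hg19 annotation.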

Additional observations from a re-analysis of the deposited data

How the results depend on the processing

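The difference in interval count kept its direction under all 15 alternatives and the difference in covered length did so under all 13. The size of the count difference was not kept. With the best 32 intervals of each list, which makes list length equal, it fell from 17.7 to 1 (two-sided exact permutation p = 0.3). None of the alternatives for covered length made fragment extension equal. The p of 0.1 is the lowest that 3 against 3 libraries can reach, so it is no measure of stability. With 1 library left out both differences varied, from 15.7 to 21.7 intervals and from 5706 to 10346 bp. The difference in share of intervals, 0.153 percentage points, turned to -0.0421 at a −log10 q of at least 5 and ranged from -1.1e-06 to 0.459 with 1 library left out; the cause was not tested. Regions called in at least 2 hypoxia lists numbered 17, and those called in all 3 numbered 8, a subset of them. They ranged from 8 to 17 with 1 hypoxia library left out. The distal region exceeded the promoter 3.10 to 3.91 times in fold with 1 library left out, 4.32 times in −log10 p, and 4.21 times in reads over local background without the pseudocount of the fold, an alternative chosen after the data were seen. With the number as a replicate block, the libraries gave differences of 17.7 intervals (exact sign-flip permutation p = 0.25), 7697 bp (exact p = 0.25) and 0.153 percentage points (exact p = 0.75), equal to the main values by construction, with 0.25 the smallest p that 3 pairs allow. Over 9420 regions, libraries that share a number deviated from their groups with correlations of 0.00356 to 0.0649. Only 1.46% of these regions had a normoxia call, so the correlations cannot show whether the numbers pair the libraries. The labels say nothing on pairing, and the main tests took the libraries as unpaired. A median of 9 to 24 reads per summit limits the precision of any 1 interval.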

Other observations

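The edges of the 600 kb window around VEGFA were set by position. On the right, 145 kb without a call separated the last region from the edge in hypoxia 2 and 3. Just outside, hypoxia 2 had a summit at 44205374 with a fold of 5.01, and hypoxia 3 had its first at 44213896 with a fold of 11.1. On the left, the nearest outside summit was that of hypoxia 3 at 43597050, 2.95 kb from the edge, with a fold of 5.3. The first inside were at 43608423 in hypoxia 2 (fold of 7.13) and at 43608408 in hypoxia 3 (fold of 8.66). Hypoxia 1 had its nearest calls 618 kb before and 8213 kb after the window, so its 10 intervals around VEGFA had no close neighbours outside it. Normoxia 3, with 1 call in the window, had its next on chromosome 6 at 28023335 and 87865331, and normoxia 2 also had a call at 28023335.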
